A study of Mus musculus with 16 samples.

Results

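Transcripts of 10 genes of autophagy were followed in the hippocampus of tau transgenic and Ch25h knockout mice: Tfeb, Ulk1, Becn1, Atg5, Map1lc3a, Map1lc3b, Gabarap, Gabarapl1, Sqstm1 and Optn. They were chosen by name, as genes of the autophagy machinery and its regulators, out of 55487 genes in the count table, and 10 of 10 had enough reads to be tested. The mice came from crossing PS19 animals, which express 1N4R human tau with the P301S mutation from the prion protein (PrP) promoter, with animals that lack Ch25h, the gene of the enzyme that makes 25-hydroxycholesterol. The groups were TCKO (tau transgene without Ch25h), T (tau transgene with Ch25h intact), CKO (no transgene, without Ch25h) and WT (neither change), with 4 libraries each, numbered 2, 3, 4 and 5 in TCKO and T and 1, 2, 4 and 5 in CKO and WT and given in that order below. All 16 libraries were from females given an age of 40 weeks, or 9.5 months in the treatment protocol, and each was made from right hippocampus of an animal perfused with PBS. Whether each library came from another mouse is not stated in the labels, and the p-values cover only the variation among libraries.

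Autophagy encloses cytoplasm in a double membrane, the autophagosome, and delivers it to the lysosome for degradation. The ULK1 kinase complex starts the process, the class III PI3 kinase complex around BECN1 nucleates the membrane, and the ATG5 conjugate attaches ATG8 proteins (the LC3 and GABARAP families) to lipid in it. Receptors such as SQSTM1 (p62) and OPTN bind ubiquitinated cargo and ATG8 at the same time, and TFEB is a transcription factor of autophagy and lysosome genes. In neurons, autophagy is a route by which aggregated tau is cleared, and in all brain cells it turns over organelles.

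TFEB binds DNA at a sequence with the core CACGTG, which its relatives TFE3 and MITF share, so the start regions of the genes were searched for it. The 250 bases before each RefSeq start (GRCm38.p6) were available for 8 of the 10 genes, as 10 windows, 3 of them for Tfeb. Below are the bases ahead of the first annotated exon (GENCODE M21) for Tfeb at its most upstream start, Optn and Gabarapl1, which changed in tau transgenic hippocampus, and for Atg5, whose window held the core. The change of Gabarapl1 was not firm, as its call was lost in 14 of the 16 fits that left out 1 library. Gabarap changed too, but only 23 bases of its window lie ahead of its first annotated exon, so it is not shown. Capitals mark CACGTG, and all 4 read 5′ to 3′ on the strand of the gene.
Tfeb, chr17:47736787-47737029, plus strand: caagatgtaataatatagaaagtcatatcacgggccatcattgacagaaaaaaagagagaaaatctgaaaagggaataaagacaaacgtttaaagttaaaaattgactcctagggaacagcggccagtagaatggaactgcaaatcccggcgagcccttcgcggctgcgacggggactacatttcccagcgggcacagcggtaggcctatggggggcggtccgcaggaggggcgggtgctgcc
Optn, chr2:5064118-5064367, minus strand: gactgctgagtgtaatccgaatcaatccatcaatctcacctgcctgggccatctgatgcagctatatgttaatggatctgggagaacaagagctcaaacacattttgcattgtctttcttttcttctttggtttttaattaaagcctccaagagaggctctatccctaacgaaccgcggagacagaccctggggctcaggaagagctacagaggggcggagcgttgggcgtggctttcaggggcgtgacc
Gabarapl1, chr6:129532942-129533159, plus strand: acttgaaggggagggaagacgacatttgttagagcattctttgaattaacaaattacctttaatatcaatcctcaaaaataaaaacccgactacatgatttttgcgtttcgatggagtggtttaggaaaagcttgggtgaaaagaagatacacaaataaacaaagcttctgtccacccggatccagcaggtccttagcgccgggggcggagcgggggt
Atg5, chr10:44268089-44268338, plus strand: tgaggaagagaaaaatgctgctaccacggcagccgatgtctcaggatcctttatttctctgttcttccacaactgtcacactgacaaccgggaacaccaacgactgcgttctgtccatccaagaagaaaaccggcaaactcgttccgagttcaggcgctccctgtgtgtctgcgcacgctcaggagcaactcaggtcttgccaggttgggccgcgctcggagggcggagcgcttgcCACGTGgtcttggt
The core CACGTG lay 14 bases before the Atg5 start and in 1 of the 10 windows, against 6.02% of 32817 windows of the same length over all RefSeq genes. Its extended form TCACGTGA, which contains the core, was in 0 of the 10 windows and in 0.786% of all windows. A GC box written GGGGCGGGG on either strand was in 3 of the 10 windows, those of Sqstm1, Ulk1 and the middle start of Tfeb, and in 10.4% of all windows. The first 2 motifs read the same on both strands. These matches describe letters in short windows and were not linked to binding.

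Library totals ran from 24.06 to 31.36 M reads in TCKO, 26.25 to 32.30 M in T, 15.06 to 26.42 M in CKO and 28.88 to 34.35 M in WT. Levels below are CPM, counts relative to the TMM-adjusted size of a library, folds are log2 values ± SE, and a gene passed at an adjusted p under 0.05 over 18565 tested genes (edgeR quasi-likelihood test). Ch25h was at 0 to 0.0371 CPM in TCKO, 4.15 to 9.55 CPM in T, 0 to 0.0819 CPM in CKO and 0.581 to 1.41 CPM in WT, as each library's label names. Mapt averaged 986 ± 141 CPM in TCKO, 769 ± 96.2 CPM in T, 375 ± 10.7 CPM in CKO and 347 ± 14.5 CPM in WT (SD, n = 4 each), a value that can include reads of the human transgene. Between the 2 tau groups Mapt itself passed, higher in TCKO than in T by 0.36 ± 0.10 (adjusted p = 0.0321), with libraries that overlapped. The part of this difference in the results of TCKO against T was not tested. Every hippocampal subfield marker, from the dentate gene Prox1 to Wfs1 of area CA1, had reads in all 16 libraries. Their levels were not even across genotypes. The mean log2 CPM of the 6 markers, less the WT mean, was -0.22 to 0.45 in TCKO, -0.64 to -0.16 in T, 0.23 to 0.41 in CKO and -0.26 to 0.31 in WT. Of the 6, 1 fell in T against WT and 2 rose in TCKO against T. Of all tested genes 11.2% fell in the first of these comparisons and 4.81% rose in the second. Choroid plexus markers stood apart in T replicate 4 and WT replicate 1, with scores of 3.78 and 3.57 against 0.57 or less elsewhere on a log2 scale where the WT mean is 0.

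In T against WT, the regulator Tfeb, the receptor Optn and the ATG8 gene Gabarap rose, while the ATG8 gene Gabarapl1 fell. Thus 3 of the 10 genes rose, 1 fell and 6 did not pass. Over all tested genes 24.2% passed, 13% higher and 11.2% lower, so the 4 of 10 are to be read against that background. The libraries of T and WT did not overlap for 3 of the 10, Tfeb, Optn and Gabarap, against 25.1% of all genes. Unadjusted p was under 0.05 for 5 of the 10, against 35.7% of all tested genes. The median log2 fold change of the 10 was -0.03, and that of all tested genes -0.01.

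**Figure D1:**
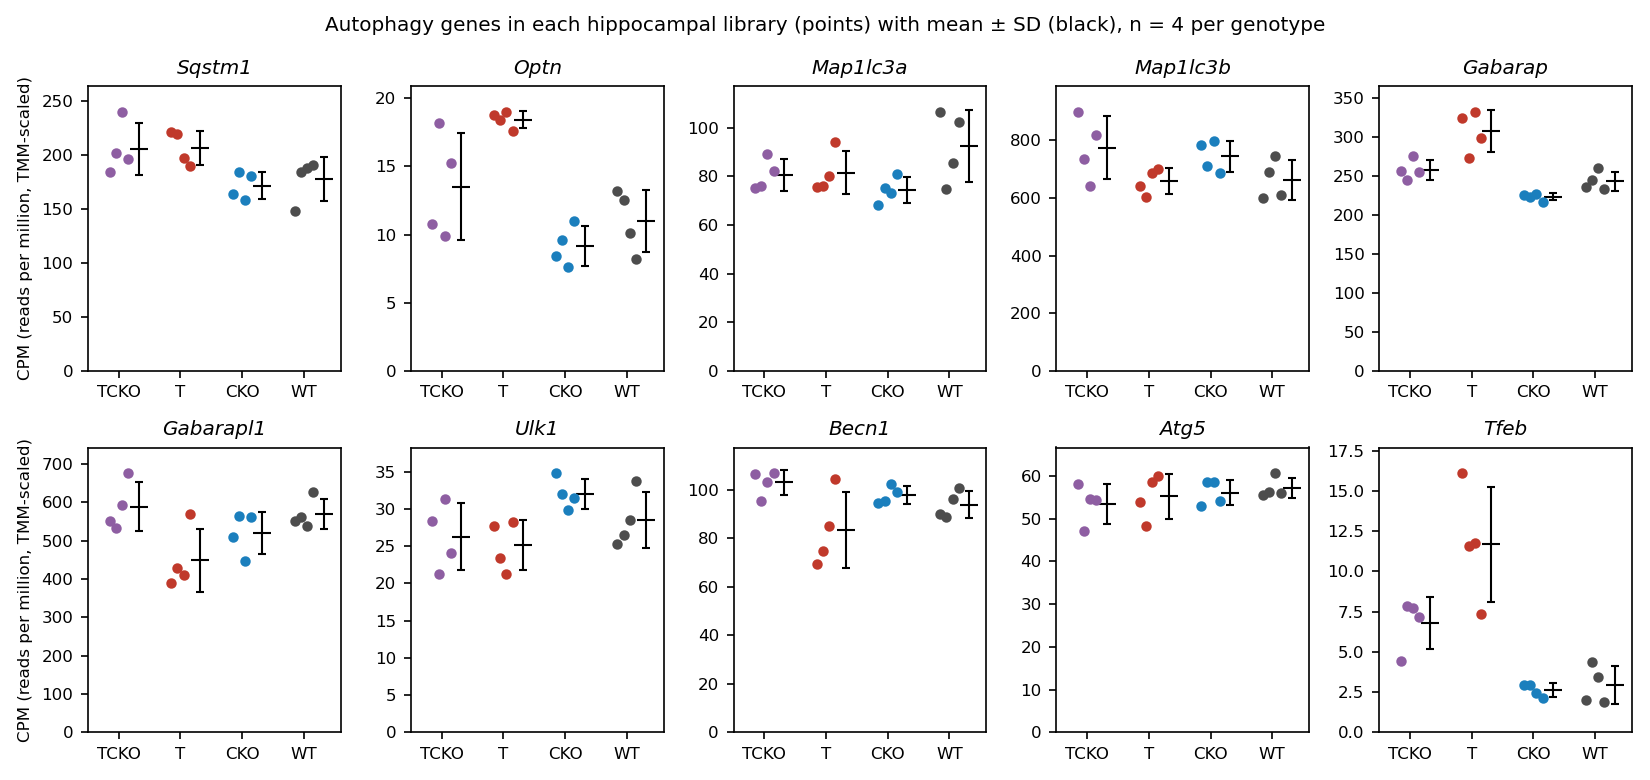
CPM of the 10 genes in each library (points) of TCKO, T, CKO and WT, with mean ± SD in black (n = 4 each) and every axis starting at 0. Tfeb lay at 7.34 to 16.1 CPM in T and 1.87 to 4.36 CPM in WT, while the groups lie over each other for Atg5.

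Tfeb (ENSMUSG00000023990, chromosome 17, 47737030 to 47792419, plus strand) had the largest difference of the 10. It was at 4.42, 7.83, 7.71 and 7.18 CPM in TCKO libraries, 16.1, 11.5, 11.7 and 7.34 CPM in T libraries, 2.95, 2.97, 2.47 and 2.13 CPM in CKO libraries, and 2.03, 4.36, 3.42 and 1.87 CPM in WT libraries. All T libraries were above all WT libraries and all TCKO libraries above all CKO libraries, while TCKO and T overlapped through T replicate 5. In T against WT Tfeb rose by 1.99 ± 0.29 (adjusted p = 0.000116), a 3.99-fold difference with a 95% interval of 1.38 to 2.61 on the log2 scale. That call passed in all 16 fits that left out 1 library, with values of 1.80 to 2.26. In TCKO against CKO Tfeb rose by 1.37 ± 0.29 (adjusted p = 0.0453).

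The comparison of TCKO with T gave -0.78 ± 0.28 for Tfeb (adjusted p = 0.0753, 95% interval -1.37 to -0.19), which did not pass. Without T replicate 5 it passed, at -0.95 (adjusted p = 0.0272), and DESeq2 also called it, at -0.80 (adjusted p = 0.0346). The rise in TCKO against CKO, for its part, was lost without any of 10 libraries (WT replicate 4, every CKO library, T replicates 3 and 4, and TCKO replicates 3, 4 and 5; adjusted p 0.0519 to 0.139), with limma voom (0.103), with the replicate block (0.130) and with an offset for effective length (0.0719). The difference between the transgene's effects with and without Ch25h, the interaction, was -0.63 ± 0.40 (adjusted p = 0.429, 95% interval -1.48 to 0.23). An interval this wide covers both no difference and a large one. Tfeb reads numbered 102 to 247 per library in TCKO, 235 to 505 in T, 38 to 72 in CKO and 53 to 147 in WT, the fewest of the 10 genes.

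Markers of oligodendrocytes, microglia, astrocytes and vessels moved with Tfeb in T against WT. Scored as the mean log2 CPM of 7 genes of myelinating cells, the oligodendrocyte level was 1.00 to 1.23 in TCKO, 0.51 to 1.56 in T, -0.53 to 0.28 in CKO and -1.16 to 1.04 in WT. Within WT, the libraries with 2.03, 4.36, 3.42 and 1.87 CPM of Tfeb had oligodendrocyte scores of -0.66, 0.78, 1.04 and -1.16, and within T the lowest Tfeb library (replicate 5) had the lowest score, 0.51. The split within WT was not particular to oligodendrocytes. In the same order, WT microglia scores were -0.27, 0.22, 0.25 and -0.20. Scores over 6 hippocampal subfield markers were -0.26, 0.15, 0.31 and -0.20 there, while neuron scores, at -0.05, 0.04, -0.12 and 0.13, did not split this way. Of the 7 oligodendrocyte markers 3 rose in T against WT, and 0 changed in TCKO against T. Beside these and the marker counts that follow, 13% of all tested genes rose in T against WT. In TCKO against T 4.81% of all tested genes rose and 8.05% fell. In TCKO against CKO, where Tfeb also rose, 0 of the 7 passed, but all 7 were higher, by 0.90 to 1.23 on the log2 scale. Their unadjusted p was under 0.05 in edgeR for 7 of 7, against 17.5% of all tested genes. In that comparison 3 of 10 microglia markers and 1 of 8 astrocyte markers rose, against 0.35% of all tested genes. The score over 10 microglia markers was 0.27 to 1.03 in TCKO, 1.99 to 2.38 in T, -0.06 to 0.05 in CKO and -0.27 to 0.25 in WT, with 9 of 10 risen in T against WT and 8 of 10 fallen in TCKO against T. Astrocyte scores over 8 markers were -0.03 to 0.51 in TCKO, 0.93 to 1.2 in T, -0.37 to -0.09 in CKO and -0.06 to 0.10 in WT, with 4 of 8 risen in T against WT and 4 of 8 fallen in TCKO against T. For 5 markers of endothelium and pericytes the scores were 0.10 to 0.28 in TCKO, 0.27 to 0.82 in T, 0.01 to 0.41 in CKO and -0.15 to 0.14 in WT, with 3 of 5 risen in T against WT and 1 of 5 fallen in TCKO against T. No marker of these lists, or of that for neurons below, was at 0 in any library. The part of these cell types in the Tfeb result was not tested, and in tissue RNA a change in the number of cells of a type cannot be told apart from a change in RNA per cell.

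**Figure D2:**
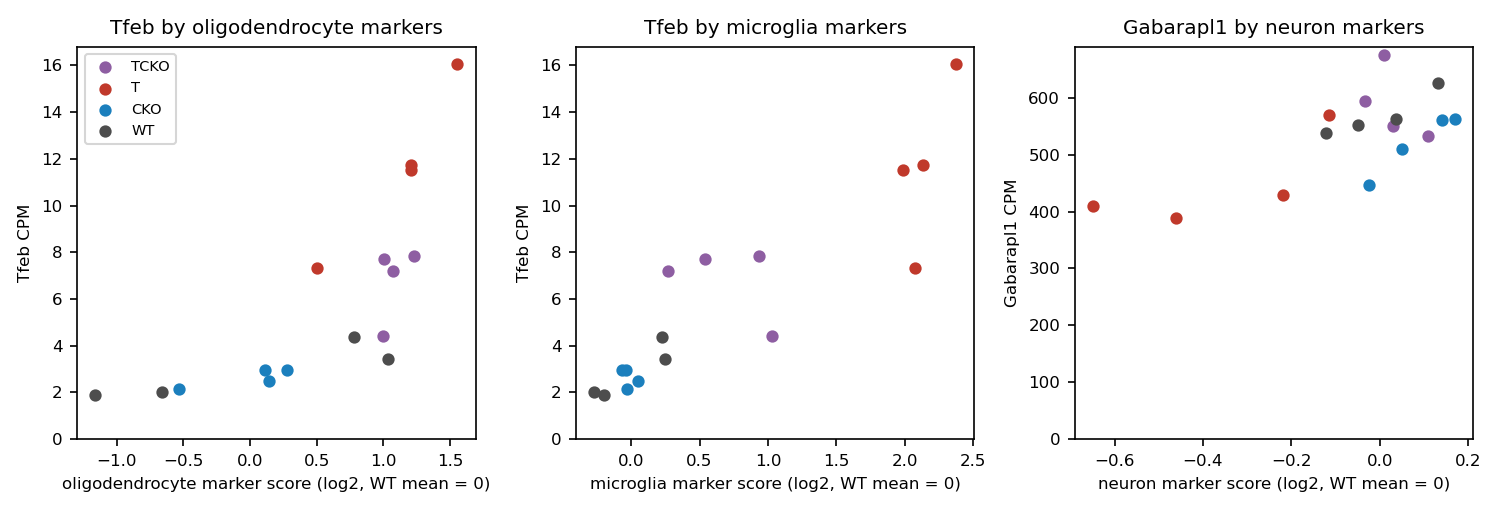
Tfeb CPM against the oligodendrocyte score (left) and the microglia score (middle), and Gabarapl1 CPM against the neuron score (right), with 1 point per library coloured by TCKO, T, CKO and WT. T replicate 2, with 16.1 CPM of Tfeb, lies at the top right of the first pair of panels, and 3 of the 4 T libraries lie apart at the low left of the neuron panel.

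Ulk1 (ENSMUSG00000029512, chromosome 5, 110784488 to 110810097, minus strand), the kinase that starts autophagosome formation, did not pass in any comparison. It was at 21.2 to 31.4 CPM in TCKO, 21.3 to 28.3 CPM in T, 29.8 to 34.8 CPM in CKO and 25.3 to 33.8 CPM in WT. Its largest difference was -0.29 ± 0.13 in TCKO against CKO (adjusted p = 0.277, 95% interval -0.57 to -0.01).

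Becn1 (ENSMUSG00000035086, chromosome 11, 101285952 to 101302286, minus strand) encodes the scaffold of the class III PI3 kinase complex. Its libraries held 107, 95.4, 103 and 107 CPM in TCKO, 69.2, 74.9, 85.1 and 104 CPM in T, 94.5, 95.4, 102 and 99.0 CPM in CKO, and 89.9, 88.5, 96.1 and 101 CPM in WT. The first 3 of the T libraries were lower than every other library of the study, and T replicate 5 lay among the rest. Becn1 did not pass in TCKO against T (0.30 ± 0.11, adjusted p = 0.0679) or in T against WT (-0.17 ± 0.11, adjusted p = 0.270). Without T replicate 5 both passed, at 0.43 (adjusted p = 0.00342) and -0.30 (adjusted p = 0.0188). With the replicate number as a block TCKO against T also passed, at 0.32 (adjusted p = 0.0468). The exons of Becn1 share 3104 bases with Cntd1 on the other strand, which had 1.22 to 17.62 reads per library.

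Atg5 (ENSMUSG00000038160, chromosome 10, 44268358 to 44364291, plus strand), part of the enzyme-like conjugate that lipidates ATG8, differed little between genotypes: its largest difference over the 4 comparisons was smaller than the largest of each of the other 9 genes. Its level was 53.5 ± 4.65 CPM in TCKO, 55.2 ± 5.33 CPM in T, 56.1 ± 2.93 CPM in CKO and 57.1 ± 2.35 CPM in WT (SD, n = 4 each). The 4 log2 differences between genotypes ran from -0.07 in TCKO against CKO to -0.03 in CKO against WT, with 95% intervals within -0.26 to 0.16.

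The ATG8 genes differed in direction from each other in T against WT. Gabarap (ENSMUSG00000018567, chromosome 11, 69991143 to 69994951, plus strand) encodes an ATG8 protein that also takes part in the trafficking of GABA receptors. It was at 256, 245, 275 and 255 CPM in TCKO libraries, 324, 273, 332 and 299 CPM in T libraries, 226, 223, 227 and 217 CPM in CKO libraries, and 235, 245, 260 and 233 CPM in WT libraries. Every T library was above every WT library, and every TCKO library above every CKO library. Gabarap rose by 0.34 ± 0.08 in T against WT (adjusted p = 0.00434), and this call passed without any 1 library and in the 9 other alternatives. In TCKO against T it fell by 0.25 on the log2 scale (SE 0.08, adjusted p = 0.0383). The lower level in TCKO lost its call without any of 7 libraries (WT replicate 2, CKO replicate 2, T replicates 2 and 4, and TCKO replicates 2, 3 and 5; adjusted p 0.0537 to 0.122), without the choroid-rich pair (0.121), without a filter on low counts (0.0772) and with the 8 compared libraries fitted alone (0.145). Microglia and astrocyte markers moved the same way as Gabarap: all T libraries had higher scores for both than all TCKO and all WT libraries, with the values given beside Tfeb. Their part in the Gabarap result was not tested.

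Gabarapl1 (ENSMUSG00000030161, chromosome 6, 129533160 to 129542346, plus strand), a relative of Gabarap that is abundant in brain, went the other way. It was at 550, 533, 594 and 675 CPM in TCKO libraries, 389, 429, 409 and 569 CPM in T libraries, 511, 563, 447 and 560 CPM in CKO libraries, and 552, 562, 538 and 625 CPM in WT libraries. As with Becn1, T replicates 2, 3 and 4 lay below all others and T replicate 5 among them. Gabarapl1 fell by 0.34 on the log2 scale in T against WT (SE 0.12, adjusted p = 0.0471) and rose by 0.39 ± 0.12 in TCKO against T (adjusted p = 0.0420). Both calls lie at the edge of the threshold. The fall in T against WT passed in 2 of the 16 fits that left out 1 library, those without T replicate 5 or TCKO replicate 5, with adjusted p from 0.0530 to 0.154 in the other 14. It was also lost without the choroid-rich pair (0.187), with RLE scaling (0.0596), without a filter on low counts (0.133), with the 8 compared libraries alone (0.106) and with the effective length offset (0.0545). The rise in TCKO against T was lost without any of 11 libraries (WT replicates 1 and 2, CKO replicates 1, 2 and 5, T replicates 2, 3 and 4, TCKO replicates 2, 4 and 5; adjusted p 0.0508 to 0.147), without the choroid-rich pair (0.144), with RLE scaling (0.0535), without the filter (0.109) and with the 8 compared libraries (0.136). Its interaction, 0.52 ± 0.17, did not pass (adjusted p = 0.102), and passed without T replicate 5 (0.66, adjusted p = 0.0149) and with the replicate block (0.53, adjusted p = 0.0488). Exons of Gabarapl1 share 570 bases with the noncoding transcript 1700101I11Rik on the other strand, which had 36.05 to 120.46 reads per library, against 6868 to 18965 for Gabarapl1.

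Neuron markers moved with Gabarapl1 and Becn1. The score over 8 neuronal genes was -0.03 to 0.11 in TCKO, -0.65 to -0.12 in T, -0.03 to 0.17 in CKO and -0.12 to 0.13 in WT. The T libraries 2, 3, 4 and 5 had scores of -0.46, -0.22, -0.65 and -0.12, with replicate 5 nearest to the other genotypes. The order differed otherwise: replicate 4 had the lowest score, while replicate 2 was the lowest T library for both Gabarapl1 and Becn1. Over 6 hippocampal subfield markers the same T libraries scored -0.64, -0.51, -0.16 and -0.22, with replicate 4 the highest. Of the 8 neuron markers 4 fell and 0 rose in T against WT, and 1 rose in TCKO against T. Over all tested genes 11.2% fell and 13% rose in T against WT, and 4.81% rose in TCKO against T. The part of the neuron markers in the fall of Gabarapl1 was not tested.

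Map1lc3b (ENSMUSG00000031812, chromosome 8, 121590361 to 121598760, plus strand) and Map1lc3a (ENSMUSG00000027602, chromosome 2, 155276297 to 155278073, plus strand) encode the LC3 proteins that are the usual markers of autophagosomes. Map1lc3b was at 642 to 898 CPM in TCKO, 603 to 702 CPM in T, 686 to 796 CPM in CKO and 600 to 745 CPM in WT. Its difference in T against WT was -0.01 ± 0.11 (adjusted p = 0.969, 95% interval -0.23 to 0.22), and in TCKO against T it was 0.23 ± 0.11 (adjusted p = 0.160). Exons of Map1lc3b share 58 bases with Zcchc14 on the other strand. Map1lc3a was at 75.1 to 89.3 CPM in TCKO, 75.5 to 94.4 CPM in T, 68.1 to 81.1 CPM in CKO and 75.0 to 107 CPM in WT. Its largest difference was -0.31 ± 0.11 in CKO against WT (adjusted p = 0.362).

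Across the 5 ATG8 transcripts, Gabarapl2 included, the balance between members was compared in TPM, which corrects for length. Their summed level was 1967 ± 64.6 TPM in TCKO, 1719 ± 113 TPM in T, 1911 ± 38.0 TPM in CKO and 1799 ± 13.3 TPM in WT (SD, n = 4 each). Gabarap made up 17.7 ± 1.41% of that sum in TCKO, 23.2 ± 1.77% in T, 16.5 ± 0.313% in CKO and 17.8 ± 0.716% in WT. The ratio of Gabarapl1 to Gabarap TPM, chosen after the levels were seen and given without a test, was 1.25, 1.28, 1.27 and 1.56 in TCKO libraries, 0.716, 0.912, 0.713 and 1.09 in T libraries, 1.32, 1.49, 1.14 and 1.499 in CKO libraries, and 1.33, 1.30, 1.18 and 1.54 in WT libraries. All 4 T libraries were below the other 12. Gabarapl2, the remaining ATG8 gene, fell by 0.26 on the log2 scale in T against WT (SE 0.07, adjusted p = 0.0128), a call lost without T replicate 3 (adjusted p = 0.0897) and in 4 other alternatives, namely no filter on low counts, the 8 compared libraries alone, the choroid-rich pair left out and the effective length offset (adjusted p 0.0504 to 0.142).

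**Figure D3:**
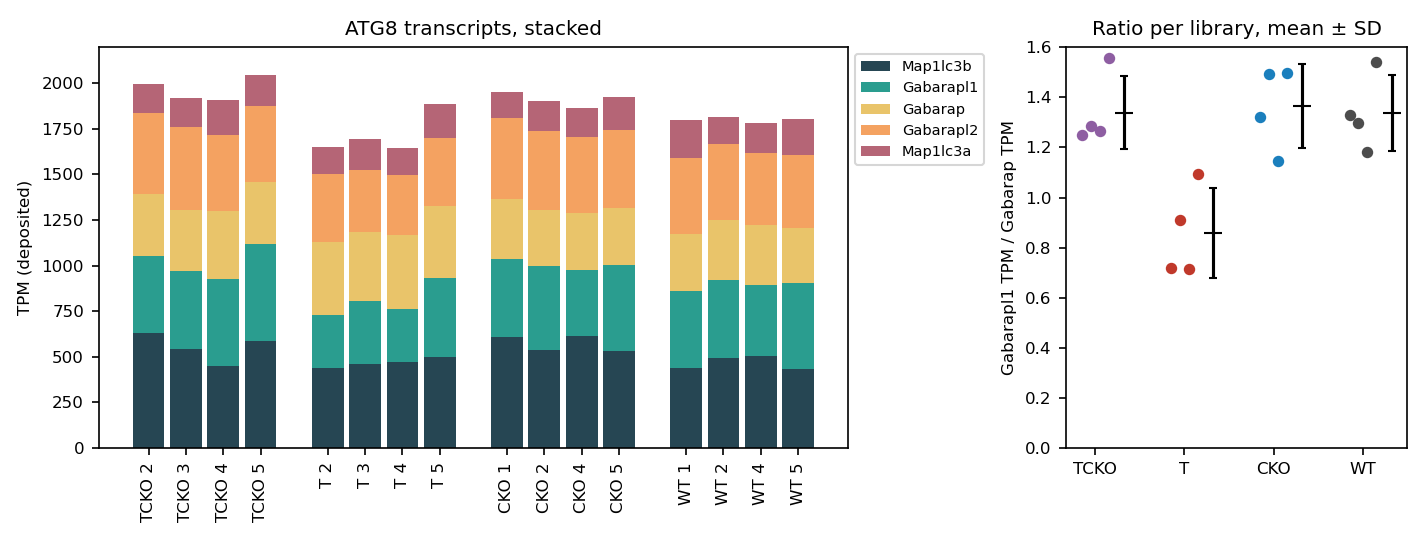
Left, TPM of the 5 ATG8 transcripts stacked for each library of TCKO, T, CKO and WT. Right, the ratio of Gabarapl1 to Gabarap TPM per library with mean ± SD (n = 4), where T libraries lie at 0.713 to 1.09 and all others at 1.14 or more.

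Of the 2 cargo receptors, Optn rose in T against WT and Sqstm1 did not pass. Optn (ENSMUSG00000026672, chromosome 2, 5020642 to 5064051, minus strand), a receptor for damaged mitochondria and other ubiquitinated cargo, was at 10.8, 18.2, 9.86 and 15.3 CPM in TCKO libraries, 18.8, 18.4, 19 and 17.6 CPM in T libraries, 8.40, 9.61, 7.61 and 10.99 CPM in CKO libraries, and 13.2, 12.5, 10.2 and 8.19 CPM in WT libraries. The T libraries spanned only 17.6 to 19 CPM and lay above all WT libraries, while the TCKO libraries were spread from CKO levels to T levels. Optn rose by 0.74 ± 0.19 in T against WT (adjusted p = 0.00974), a call that passed without any 1 library. In TCKO against T it was -0.44 ± 0.19 (adjusted p = 0.136), and it passed there without TCKO replicate 3 (-0.64, adjusted p = 0.0330). In TCKO against CKO it was 0.56 ± 0.19 (adjusted p = 0.153, 95% interval 0.15 to 0.97). Astrocyte and microglia scores, given beside Tfeb, were likewise higher in every T library than in every WT library, and their part was not tested.

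Sqstm1 (ENSMUSG00000015837, chromosome 11, 50199366 to 50210827, minus strand) encodes p62, itself degraded by autophagy. Its libraries were at 185, 202, 240 and 196 CPM in TCKO, 221, 219, 198 and 190 CPM in T, 164, 184, 159 and 181 CPM in CKO, and 148, 184, 188 and 191 CPM in WT. All TCKO libraries were above all CKO libraries, by a narrow margin, and T overlapped WT through T replicate 5. The difference was 0.26 ± 0.10 in TCKO against CKO (adjusted p = 0.204) and 0.22 ± 0.10 in T against WT (adjusted p = 0.135), and neither passed. Between TCKO and T it was -0.01 ± 0.10 (95% interval -0.22 to 0.21). Exons of Sqstm1 share 580 bases with Mrnip on the other strand, which had 349.96 to 770.42 reads per library against 2443 or more for Sqstm1.

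In TCKO against T, 1 of the 10 genes rose (Gabarapl1), 1 fell (Gabarap) and 8 did not pass, where 12.9% of all tested genes passed, 4.81% higher and 8.05% lower. Unadjusted p was under 0.05 for 6 of the 10, against 28% of all tested genes. Among the 10, TCKO and T overlapped for every gene, while 14.8% of all genes had the 2 groups apart. The median log2 difference was -0.01, and 0.02 over all tested genes. These calls share the T libraries with T against WT, so a gene that is high or low in T tends to opposite signs in the 2 comparisons by construction.

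In TCKO against CKO, 1 of the 10 rose (Tfeb), 0 fell and 9 did not pass, where 0.539% of all tested genes passed, 0.35% higher and 0.189% lower. The median log2 difference was 0.15, and 0.01 over all tested genes. At an unadjusted p under 0.05 were 5 of the 10, against 17.5% of all tested genes. Libraries did not overlap for Tfeb, Gabarap and Sqstm1, against 10.3% of all genes. Gabarap there had 0.21 ± 0.08 (adjusted p = 0.174, 95% interval 0.05 to 0.37).

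In CKO against WT, edgeR, DESeq2 and limma voom each called 0 of the 10 genes, with 1 gene (Map1lc3a) at an unadjusted p under 0.05 in edgeR, against 11.3% of all tested genes. The share of all tested genes that passed was 0.0108%. Gabarap alone had libraries that did not overlap, with 217 to 227 CPM in CKO and 233 to 260 CPM in WT (-0.12 ± 0.08, adjusted p = 0.565), where 8.94% of all genes had such libraries. For Tfeb the difference was -0.15 ± 0.29 with a 95% interval of -0.77 to 0.47.

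The interaction called 0 of the 10 genes in edgeR, DESeq2 and limma voom, where 3.15% of all tested genes passed, 0.695% with a positive and 2.45% with a negative value. Gabarapl1, described above, was the 1 gene with an unadjusted p under 0.05, against 18.8% of all tested genes. For the remaining 9 the difference between the transgene's effects ran from -0.63 (Tfeb) to 0.30 (Map1lc3a). A miss of the threshold does not show that the transgene acted alike with and without Ch25h.

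**Figure D4:**
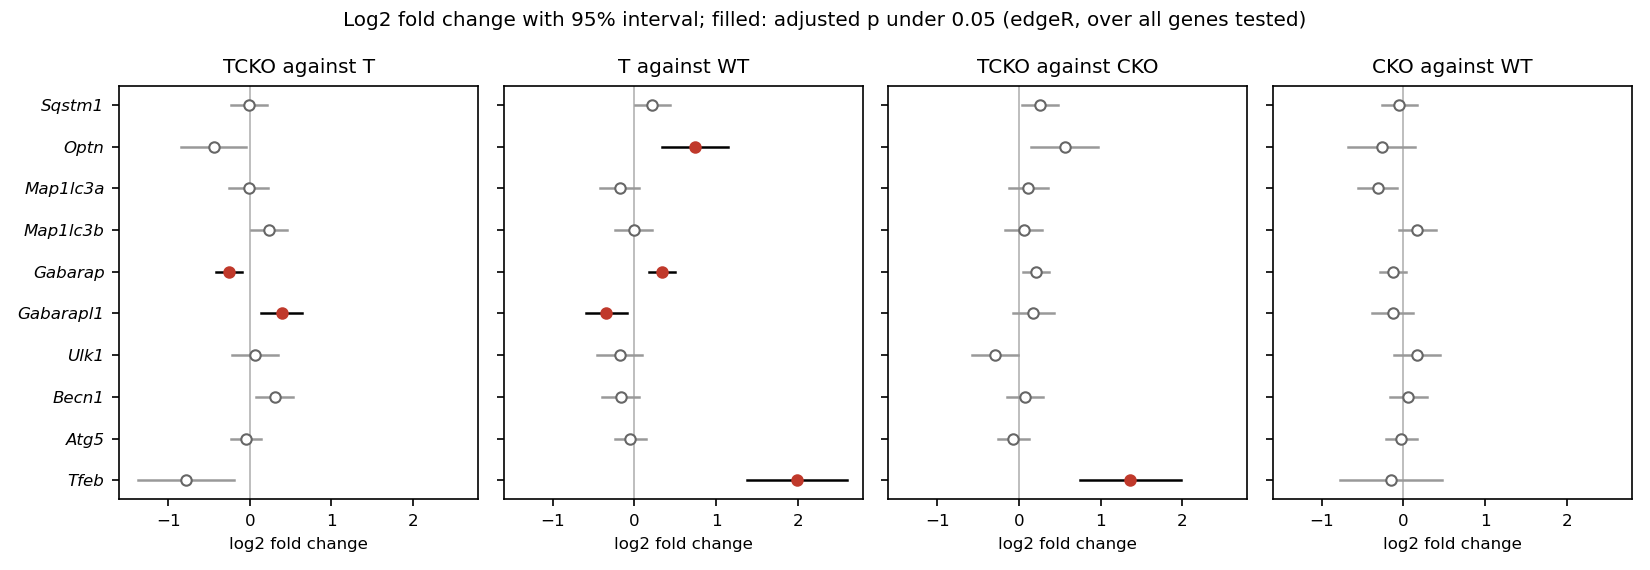
Log2 fold change of the 10 genes with its 95% interval in TCKO against T, T against WT, TCKO against CKO and CKO against WT. Filled points passed at an adjusted p under 0.05: 2 in TCKO against T, 4 in T against WT, 1 in TCKO against CKO and 0 in CKO against WT.

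Ordered by TPM, Map1lc3b, Gabarap and Gabarapl1 were the most abundant of the 10 and Tfeb, Optn and Ulk1 the least in every genotype. In TCKO the order was Map1lc3b (551 ± 78.3 TPM), Gabarapl1 (465 ± 49.5 TPM), Gabarap (348 ± 19.8 TPM), Sqstm1 (193 ± 30.3 TPM), Map1lc3a (169 ± 15.8 TPM), Becn1 (111 ± 15.4 TPM), Atg5 (33.4 ± 2.60 TPM), Ulk1 (7.91 ± 1.55 TPM), Optn (7.07 ± 2.08 TPM) and Tfeb (5.63 ± 1.33 TPM). Libraries of the first pair of neighbours, of Sqstm1 and Map1lc3a, and of the last 3 genes overlapped. In T, Gabarap (397 ± 12.7 TPM) stood above Gabarapl1 (340 ± 67.6 TPM), and Tfeb (10.02 ± 3.36 TPM) stood above Optn (9.17 ± 0.336 TPM) and Ulk1 (7.19 ± 1.05 TPM). Within T, libraries overlapped for Gabarap and Gabarapl1, for Sqstm1 and Map1lc3a, and for Tfeb with both Optn and Ulk1. CKO followed the order of TCKO, with Ulk1 (10.1 ± 0.931 TPM), Optn (4.99 ± 0.810 TPM) and Tfeb (2.41 ± 0.651 TPM) at its end and an overlap for Sqstm1 and Map1lc3a alone. WT ended with Ulk1 (8.06 ± 1.08 TPM), Optn (5.48 ± 1.23 TPM) and Tfeb (2.24 ± 0.799 TPM), had Map1lc3a (178 ± 29.9 TPM) before Sqstm1 (159 ± 16.4 TPM), and overlapped for that pair and for Map1lc3b (467 ± 36.0 TPM) with Gabarapl1 (427 ± 33.4 TPM).

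The genes whose log2 CPM ran closest to a called gene were found by the root mean square difference of centred values over the 16 libraries, among 15098 genes. Nearest to Gabarap were Nme2 (0.071), Kxd1 (0.073) and Rps10 (0.087), where Gabarap itself has an SD of 0.181. For Gabarapl1 they were Slc25a3 (0.071), Scamp5 (0.074) and Apbb1 (0.081), with an SD of 0.215. The values for Optn were 0.162 for Ezr, 0.194 for Tram1 and 0.201 for Tmem47, with an SD of 0.4502. Tfeb was followed by Wipf1 (0.236), Ddr1 (0.237) and Frmd8 (0.245), with an SD of 0.950. These points share libraries and genotypes, and the likeness is a description.

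Around these 10 genes, 77 others of the pathway were grouped by role. Of the 77, 6 rose and 18 fell in T against WT, 31.2% of them against 24.2% of all tested genes, with a median of -0.12. In TCKO against T 7 rose and 3 fell, 13% against 12.9%, with a median of 0.14. With the choroid-rich pair left out, 10 of the 77 passed in T against WT and 5 in TCKO against T. Leaving out single libraries gave 15 without T replicate 2 and 14 without T replicate 3 for T against WT, and for TCKO against T 4 without T replicate 2, 6 without T replicate 4 or TCKO replicate 5, and 23 without T replicate 5. The marker scores above moved in these comparisons too, and their part in the wider lists was not tested.

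Counted with the 10, 1 of 5 genes of the ULK complex and 3 of 8 genes of the class III PI3 kinase complex fell in T against WT, and 0 of either rose. Of all tested genes 11.2% fell and 13% rose there. Atg13, the ULK1 partner that mTOR controls, was at 54.3 ± 2.96 CPM in TCKO, 38.5 ± 3.41 CPM in T, 51.6 ± 2.81 CPM in CKO and 51.7 ± 3.89 CPM in WT (SD, n = 4 each). It fell by 0.43 on the log2 scale in T against WT (SE 0.09, adjusted p = 0.00214) and rose by 0.50 ± 0.09 in TCKO against T (adjusted p = 0.00107), and both calls passed in every alternative. T libraries (35.8 to 43.1 CPM) overlapped no other library. Ambra1, which binds Becn1, fell by 0.35 in T against WT (adjusted p = 0.0139) and rose by 0.39 ± 0.10 in TCKO against T (adjusted p = 0.0140), and Pik3c3, the kinase subunit, fell by 0.42 in T against WT (adjusted p = 0.0145), on the log2 scale. Ambra1 lost both calls without T replicate 2 (adjusted p = 0.0532 in T against WT and 0.0565 in TCKO against T) and without a filter on low counts (0.0843 and 0.0774), that in T against WT without the choroid-rich pair (0.0707), and that in TCKO against T with the 8 compared libraries (0.0963). Pik3c3 lost its call without T replicate 3 (0.0725), with the replicate block (0.0611) and without the choroid-rich pair (0.118).

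Among 10 genes of ATG9 trafficking, lipid transfer and WIPI proteins, 1 rose in T against WT, where 13% of all tested genes rose. It was Wipi1, which binds the PI3 phosphate of the forming membrane. Wipi1 was at 21.4 ± 1.08 CPM in TCKO, 21.7 ± 2.62 CPM in T, 13.7 ± 1.63 CPM in CKO and 13.4 ± 1.47 CPM in WT (SD, n = 4 each), so both tau groups lay above both groups without the transgene. It rose by 0.69 ± 0.12 in T against WT (adjusted p = 0.000626, in every alternative) and by 0.65 ± 0.12 in TCKO against CKO (adjusted p = 0.0265). In TCKO against CKO the call was lost with the replicate block (0.113) and without any CKO library or TCKO replicate 3 (adjusted p 0.0627 to 0.0863). Atg9a, the membrane protein of the seed vesicles, rose by 0.42 ± 0.11 in TCKO against T (adjusted p = 0.0215), a call lost without T replicate 2 or 4 or TCKO replicate 4 or 5 (0.0661 to 0.0862), without a filter (0.0578), with the 8 compared libraries (0.0952) and without the choroid-rich pair (0.0897).

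Of 11 conjugation and processing genes, 1 rose and 3 fell in T against WT, where 13% of all tested genes rose and 11.2% fell. Atg4b, the main protease that trims ATG8 proteins, was at 58.5 ± 3.88 CPM in TCKO, 44.3 ± 4.72 CPM in T, 57.3 ± 2.83 CPM in CKO and 64.3 ± 4.93 CPM in WT (SD, n = 4 each). It fell by 0.54 on the log2 scale in T against WT (SE 0.09, adjusted p = 0.00048, in every alternative) and rose by 0.40 ± 0.09 in TCKO against T (adjusted p = 0.00815). With an offset for effective length the TCKO against T value was 0.27 (adjusted p = 0.234), and that call was also lost with the 8 compared libraries (0.0728) and without the choroid-rich pair (0.0591). The related protease gene Atg4a went the opposite way, with a rise of 0.84 ± 0.22 in T against WT (adjusted p = 0.0107) and -0.73 ± 0.22 in TCKO against T (adjusted p = 0.0356). Without the choroid-rich pair Atg4a passed in neither (0.0623 and 0.138), and in TCKO against T it was also lost without T replicate 2 or 4 or any TCKO library (0.056 to 0.128) and with the 8 compared libraries (0.0557).

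Of 14 receptor genes 2 rose in T against WT, Optn and the endoplasmic reticulum receptor Retreg1 (0.61 ± 0.14, adjusted p = 0.00578), and 1 fell, the mitochondrial receptor Bnip3 (-0.44 ± 0.11, adjusted p = 0.00946). Of all tested genes 13% rose and 11.2% fell in that comparison. The Bnip3 call was lost without T replicate 3 (0.0548) and without the choroid-rich pair (0.0623). In TCKO against T 0 of the 14 receptor genes passed in edgeR, against 12.9% of all tested genes. Unadjusted p was under 0.05 for 5 of them, against 28% of all tested genes. Of 20 regulators 3 rose and 4 fell in T against WT, beside the same 13% and 11.2% of all tested genes. Among these regulators were Tfe3, a relative of Tfeb (0.66 ± 0.16, adjusted p = 0.0054), and Tbk1, the kinase that activates OPTN (-0.44 ± 0.11, adjusted p = 0.00837, and 0.0781 without the choroid-rich pair). Mitf, also of the Tfeb family, was at 8.15 ± 1.85 CPM in TCKO, 15.3 ± 3.24 CPM in T, 8.54 ± 1.51 CPM in CKO and 9.62 ± 2.87 CPM in WT (SD, n = 4 each). Mitf fell by 0.90 on the log2 scale in TCKO against T (SE 0.23, adjusted p = 0.0142), a call lost without T replicate 4 (0.0521).

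Of 14 fusion genes 1 rose and 5 fell in T against WT, where 13% of all tested genes rose and 11.2% fell. Vamp8, a SNARE of autophagosome and lysosome fusion, was at 26.7 ± 4.60 CPM in TCKO, 63.5 ± 28.6 CPM in T, 18.8 ± 1.59 CPM in CKO and 27.9 ± 11.8 CPM in WT (SD, n = 4 each). It rose by 1.19 ± 0.28 in T against WT (adjusted p = 0.00518) and fell by 1.25 on the log2 scale in TCKO against T (SE 0.28, adjusted p = 0.00698), and both calls passed in every alternative. Vps16, a subunit of the HOPS tether, fell by 0.48 in T against WT (adjusted p = 0.0055) and rose by 0.42 ± 0.11 in TCKO against T (adjusted p = 0.0218). The Vps16 rise was lost without T replicate 2 or 3 or TCKO replicate 2 or 3 (0.0647 to 0.0842), without a filter (0.0658), with the 8 compared libraries (0.127) and with the effective length offset (0.0798).

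The wider lists held 1 call in TCKO against CKO (Wipi1), 0 in CKO against WT in edgeR, DESeq2 and limma voom (4 of the 77 at an unadjusted p under 0.05 in edgeR, against 11.3% of all tested genes), and 2 in the interaction. In TCKO against CKO 1.3% of the 77 passed, against 0.539% of all tested genes. In the interaction 2.6% of the 77 passed, against 3.15% of all tested genes. In CKO against WT 0.0108% of all tested genes passed. The 2 interaction calls were Atg13 (0.50 ± 0.12, adjusted p = 0.0342) and Atg4b (0.56 ± 0.13, adjusted p = 0.0251), both higher in TCKO than in T, with the CKO and WT means given above. Atg13 lost the call without any of 11 libraries (WT replicates 2 and 5, CKO replicates 1, 4 and 5, T replicates 2, 3 and 4, TCKO replicates 2, 3 and 5; adjusted p 0.0549 to 0.0818), and Atg4b without any of 5 (WT replicates 2 and 5, CKO replicates 2 and 4, T replicate 2; 0.0527 to 0.0668). Both interactions were also lost without a filter on low counts (0.122 for Atg13 and 0.0746 for Atg4b) and without the choroid-rich pair (0.0739 and 0.0785), and that of Atg4b with the effective length offset (0.173).

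**Figure D5:**
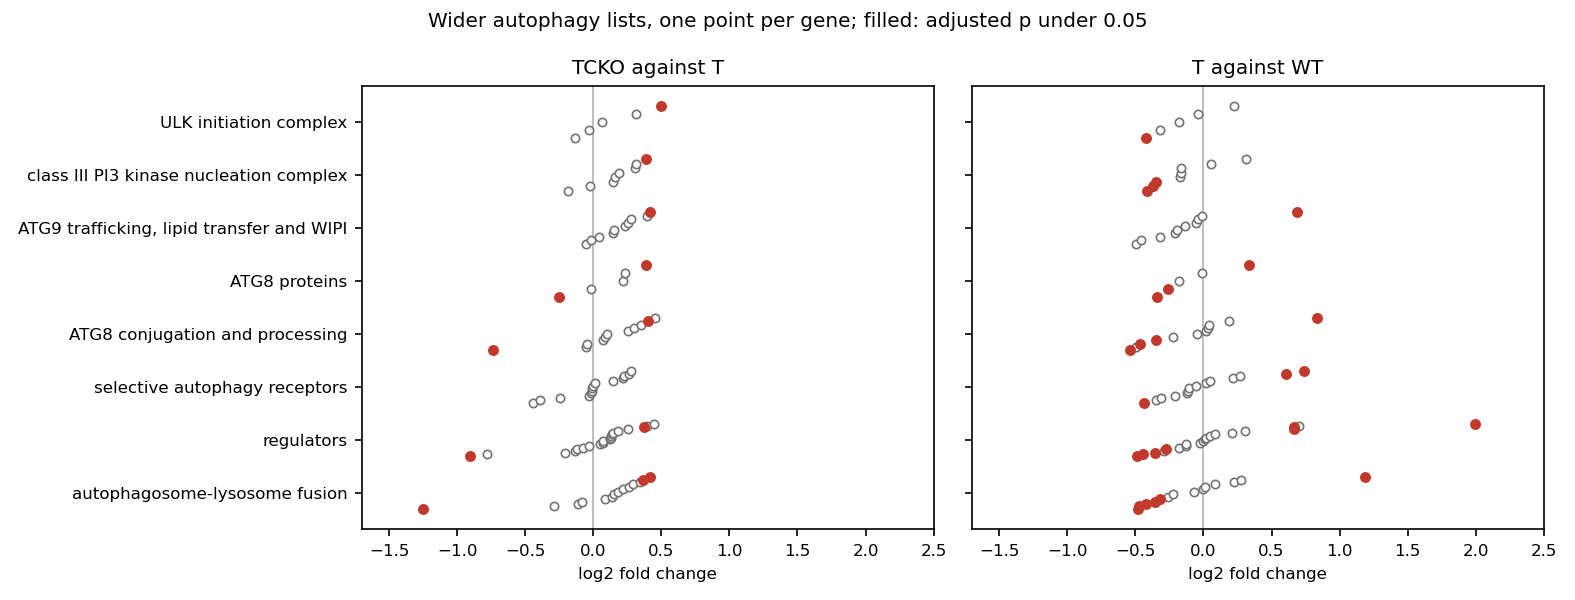
Log2 fold change of each of the 87 genes in 8 lists (1 point per gene, members included) in TCKO against T and T against WT, with filled points past an adjusted p of 0.05. In T against WT 9 filled points lie right of 0 and 19 left of it, and in TCKO against T 8 lie right and 4 left.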

How the data were processed

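Expression was measured by RNA sequencing of total RNA from frozen right hippocampus, using a SMARTer Ultra Low kit with oligo-dT priming (per the labels' protocols). Per the submitters' processing notes, the tools included STAR 2.5.1a and featureCounts 1.4.6-p5 and the build was GRCm38. The deposited series table holds estimated counts per gene (expected counts, of which 74.53% of those above 0 are whole), and the authors' per-sample files add TPM and an effective length, per the file headers. The program behind these columns is not stated there. Of 55774 lines, 287 repeat a gene, and 55487 genes were kept. Gabarapl1, Sqstm1 and Becn1 had fractional counts in all 16 libraries and Map1lc3b in 15, so reads of these 4 may be shared with copies or overlapping genes, and the others had none. Use of strand in counting is not stated in the labels or headers.

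Counts were rounded and fitted with edgeR 4.0.16 (R 4.3.3): TMM, filterByExpr, a mean per genotype over 16 libraries, and quasi-likelihood F-tests with Benjamini-Hochberg adjustment over 18565 genes and a threshold of 0.05. The script was tested on simulated data with known changes. TPM served for levels between genes. Marker scores are mean log2 CPM (prior count 2) minus the WT mean. Alternatives were RLE and upper quartile scaling, DESeq2 1.42.0, limma voom 3.58.1, no filter, the 8 compared libraries only, the replicate number as a block, an effective length offset, leaving out both choroid-rich libraries, and leaving out each library. Same-numbered libraries of T and WT deviated together (3 pairs, correlations of 0.12 to 0.30), as did those of T and CKO (3 pairs, 0.10 to 0.14), and every other pairing of groups had a pair at or under 0.1, so blocked values are given where they change a call. Start regions came from RefSeq, loci from GENCODE M21.

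The 10 genes, the 8 lists of 87 pathway genes and the marker lists were chosen with earlier results of these data known. Named besides the 10 were, per comparison and list, up to 2 genes by p among those passing with at least 1 CPM, and for each of the 10 that passed in T against WT or TCKO against T its 3 nearest genes. Precision is limited by 4 libraries per group and, for Tfeb, by low counts.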

Additional observations from a re-analysis of the deposited data

Results flagged for a closer look

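For Sqstm1, WT replicate 1 (148 CPM) lay far from the other WT libraries (184 to 191 CPM) by a gap of 0.839 of the group's range, which is above Dixon's 95% critical value for 4 libraries. Without it, Sqstm1 in T against WT was 0.14 (adjusted p = 0.362, edgeR). That library is also 1 of the 2 rich in choroid plexus markers. For Atg5, WT replicate 4 (60.6 CPM) lay above the others (55.6 to 56.2 CPM), with a gap of 0.866 of the range, and without it T against WT was -0.02 (adjusted p = 0.917). These are 2 of 40 groups of 4 examined, and chance flags about 1 in 20.

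The effect of the transgene differed with Ch25h genotype for Atg13 and Atg4b, by an interaction of 0.50 ± 0.12 (adjusted p = 0.0342) and 0.56 ± 0.13 (adjusted p = 0.0251) in edgeR's quasi-likelihood test. They are 2.6% of the 77 wider genes, where 3.15% of all tested genes passed. Neither call was firm: Atg13 lost it in 11 and Atg4b in 5 of the 16 fits that left out 1 library, and they lost it in 2 (adjusted p up to 0.122) and 3 (up to 0.173) of the other alternatives. Atg13 was 54.3 CPM in TCKO and 51.6 CPM in CKO, and 38.5 CPM in T and 51.7 CPM in WT. For Atg4b the means were 58.5 CPM in TCKO and 57.3 CPM in CKO, and 44.3 CPM in T and 64.3 CPM in WT.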

How the results depend on the processing

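Of 75 results for single genes, 38 kept their direction and side of the threshold in every alternative and 37 did not; the cause was not tested. In T against WT the count of the 10 genes stayed at 3 to 5 in all alternatives, and that of the 77 wider genes (24) was 15 without a filter and 10 without the choroid-rich pair. In TCKO against T the count of the 10 (2) was 1 with RLE scaling and 0 without a filter, with the 8 compared libraries and without the choroid-rich pair, and the wider count (10) was 5, 3 and 5 in the last 3 of these. In TCKO against CKO the 10 gave 0 with limma voom, the effective length offset and the replicate block (main count 1), and the wider genes gave 0 with the block (main count 1). In the interaction the 10 gave 1 with the block (Gabarapl1), and the wider genes (2) gave 4 with DESeq2, 0 without a filter or without the choroid-rich pair, and 1 with the effective length offset. The block by replicate number treats libraries of the same number as related, and the labels do not state what the number marks. It moved no other count by over 1.5 times.

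Leaving out single libraries gave 14 to 31 wider genes in T against WT, 0 to 4 of the 10 and 4 to 23 wider genes in TCKO against T, 0 to 1 and 0 to 1 in TCKO against CKO, and 0 to 1 and 0 to 6 in the interaction. Directions turned for differences near 0. Map1lc3b in T against WT was 0.0081 with RLE scaling, 0.0081 with DESeq2, 0.028 without a filter, 0.011 with 8 libraries and 0.016 with the block. Without the choroid-rich pair Ulk1 in TCKO against T was -0.024 and the Atg5 interaction 0.036. Over single libraries left out, T against WT ran from -0.053 to 0.062 for Map1lc3b and -0.092 to 0.041 for Atg5. TCKO against T ran from -0.12 to 0.041 for Sqstm1, -0.093 to 0.063 for Map1lc3a and -0.064 to 0.14 for Ulk1, and TCKO against CKO from -0.021 to 0.14 for Map1lc3b and -0.11 to 0.0024 for Atg5. CKO against WT ran from -0.047 to 0.0027 for Atg5 and -0.32 to 0.11 for Tfeb. The interaction ran from -0.079 to 0.12 for Sqstm1, -0.012 to 0.11 for Map1lc3b and -0.093 to 0.025 for Atg5.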
